A study of Rattus norvegicus with 7 samples.

Results

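A set of 10 enzyme genes of chondroitin sulfate synthesis was followed in rat synovium after injection of MIA into the knee. They were taken by gene symbol from the deposited table, and all 10 of 10 symbols were found among its 20660 genes, each on 1 row. By step they are the linker-starting genes Xylt1 and Xylt2, the chain-building genes Chsy1, Chsy3, Chpf, Chpf2, Csgalnact1 and Csgalnact2, and the sulfating genes Chst3 and Chst11. The MIA group was 4 male SD rats of 3 months, kept specific-pathogen-free, (MIA 1 to 4) whose right knee joint had been injected with 0.1 mL of MIA at 10 mg per kg. The control group was 3 male SD rats of the same age (control 2 to 4) that were left untreated, so the effect of MIA and that of the injection itself cannot be told apart. MIA is not spelled out in the labels and in knee osteoarthritis models usually means monosodium iodoacetate, an inhibitor of glycolysis. Synovium, the soft tissue lining the joint, was taken 4 weeks after injection, and 1 RNA-seq library was made per rat from 1.5 µg of RNA.

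Chondroitin sulfate is a sugar chain that hangs from proteoglycan core proteins such as aggrecan and versican. Its assembly in the Golgi begins when a xylosyltransferase puts xylose on a serine of the core protein. A short linker is then completed, which heparan sulfate chains share, and an N-acetylgalactosaminyltransferase commits the linker to chondroitin. Chondroitin synthases, working with polymerizing factors, add glucuronic acid and N-acetylgalactosamine in turn, and sulfotransferases then place sulfate on the chain. In joints these chains give cartilage matrix its charge and swelling pressure, and they are also part of the provisional matrix of remodelling soft tissue.

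Promoter letters are shown for the sulfating and the linker-starting pairs, because in each pair 1 gene passed the test between the groups and its relative did not. The pair of Csgalnact1 and Csgalnact2 split in the same way, but no RefSeq promoter was available for either gene. Each run holds the 250 bases before the gene start given by RefSeq on build GRCr8, read 5′ to 3′ on the strand of the gene. Capitals mark the GC box GGGCGG, also where it lies on the other strand and is read as CCGCCC. The deposited counts refer to another build, Rnor_6.0.
Chst11 (chr7:22630442-22630691, minus strand): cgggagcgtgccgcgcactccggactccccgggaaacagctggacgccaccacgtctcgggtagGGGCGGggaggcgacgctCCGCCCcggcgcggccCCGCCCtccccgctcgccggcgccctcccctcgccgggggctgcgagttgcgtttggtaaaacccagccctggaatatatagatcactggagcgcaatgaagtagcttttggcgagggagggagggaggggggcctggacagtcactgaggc
Chst3 (chr20:28694527-28694776, minus strand): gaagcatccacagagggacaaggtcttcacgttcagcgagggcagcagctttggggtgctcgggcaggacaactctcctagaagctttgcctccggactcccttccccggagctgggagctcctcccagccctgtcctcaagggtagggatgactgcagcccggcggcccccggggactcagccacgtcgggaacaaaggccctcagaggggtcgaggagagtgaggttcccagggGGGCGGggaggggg
Xylt1 (chr1:181077972-181078221, plus strand): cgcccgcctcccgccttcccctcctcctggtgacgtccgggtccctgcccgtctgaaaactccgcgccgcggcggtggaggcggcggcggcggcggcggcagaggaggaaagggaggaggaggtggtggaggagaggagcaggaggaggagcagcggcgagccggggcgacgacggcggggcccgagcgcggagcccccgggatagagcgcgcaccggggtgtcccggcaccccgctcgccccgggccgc
Xylt2 (chr10:80116259-80116508, minus strand): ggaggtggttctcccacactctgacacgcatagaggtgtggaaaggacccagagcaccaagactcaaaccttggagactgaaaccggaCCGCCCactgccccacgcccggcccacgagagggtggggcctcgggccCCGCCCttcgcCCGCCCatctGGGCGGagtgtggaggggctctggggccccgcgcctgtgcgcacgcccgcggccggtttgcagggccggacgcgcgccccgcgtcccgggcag
The GC box stood on both strands in Chst11 and in Xylt2 and once, on the strand of the gene, in Chst3, and these letters were not in the Xylt1 window. RefSeq windows were found for 8 of the 10 genes, all but Csgalnact1 and Csgalnact2. Chsy1 was left out because an ATG at the end of its window opens a reading frame that runs on through the table's entry, so the window may be transcribed. In the remaining 7 windows the GC content ran from 57.6% to 78.4%, against a median of 51.2% over 33469 rat windows of the same length. The GC box was in 4 of these 7 windows and in 30.5% of all windows. The hypoxia response core ACGTG, searched on both strands, was in 3 of the 7 (Chpf, Chst11 and Chst3) and in 16.6% of all. The AP-1 motif TGANTCA, searched on both strands, was in none of the 7 and in 6.34% of all windows. The TATA box TATAAA was in none of the 7 and in 12.9% of all windows on either strand. The CCAAT box was in none of the 7 and in 34% of all windows on either strand. The 33469 windows were not restricted to expressed genes, and the ATG rule that left out Chsy1 was applied to the 10 genes only. Matches of letters are a description and mark no binding site.

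The libraries held 13870822 to 16261089 counts, and 13126 to 14335 genes per library had 10 or more. They differed in the tissue transcripts that they held. The skeletal muscle list, of which 15 of 20 genes were matched, took 0.0391% to 4.37% of the counts in MIA libraries, lowest in MIA 2, and 11.7% to 13.7% in control libraries. The fibroblast list (10 of 10) took 4.51% to 7.79% in MIA and 0.326% to 0.654% in control libraries, and the adipocyte list (7 of 7) 0.0263% to 0.0634% and 0.0653% to 0.139%. Of the adipocyte genes, Plin4 and Fabp4 were lower in every MIA library than in every control. Adipoq, Plin1, Lep, Cidec and Pck1 overlapped between the groups, and Plin1 had 21 counts in control 3 and 145 to 700 in MIA libraries. The cartilage list (12 of 12) took 0.0310% to 0.424% in MIA and 0.0298% to 0.0467% in control libraries, with Matn1 at 0 in every control and in all MIA libraries but MIA 2, which had 4 counts. The synovial lining list (6 of 6, none at 0 in either group) took 0.149% to 0.743% in MIA and 0.193% to 0.399% in control libraries, and the lubricin gene Prg4, the defining marker of the lining, was counted in all 7 libraries. The macrophage list (9 of 9) took 0.218% to 0.619% in MIA and 0.0773% to 0.0951% in control libraries, and the bone cell list (8 of 8) 0.0400% to 0.171% in MIA and 0.00576% to 0.00760% in control libraries. The lymphocyte list (8 of 8) took 0.00824% to 0.0232% in MIA and 0.00365% to 0.00476% in control libraries. Its share was mainly that of Cd4, with 1113 to 3177 counts in MIA and 470 to 695 in control libraries. No other gene of the list exceeded 448 counts (Cd8a in MIA 3). Cd3e was highest in MIA 3 (162 counts) and lowest of the MIA libraries in MIA 2 (14). The neutrophil list (5 of 5) took 0.00260% to 0.0729% in MIA and 0.000898% to 0.000973% in control libraries. The part of these differences in the changes that follow was not tested. In such bulk samples more cells of a type and more RNA per cell cannot be told apart.

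Of the 10 chondroitin sulfate genes, 7 were higher in MIA synovium and none was lower under TMM scaling. The calls depended on the scaling. Relative to the whole fibroblast list 0 were called higher and 5 lower. Relative to the 5 genes of that list with the smallest changes, 4 were called higher and 0 lower. The largest rises were in the 2 chondroitin synthases and in Xylt1, each between 7.64-fold and 8.96-fold, and smaller rises were found for Chst11, Chpf, Csgalnact1 and Chpf2. Xylt2, Csgalnact2 and Chst3 did not pass the test. Calls are at an adjusted p under 0.05 by edgeR's quasi-likelihood test with Benjamini-Hochberg adjustment over 14054 genes, all 10 included. Levels are CPM, counts relative to the TMM-scaled size of the library, and changes are log2, MIA minus control, ± SE. Here 7 of 10 were called higher and 0 of 10 lower, against 21.3% and 19.6% of all tested genes, 40.9% in either direction. The median log2 change was 1.70 over the 10 genes and 0.07 over all tested genes. For the same 7 genes every MIA library lay above every control library, which was so for 24.8% of tested genes; 24.4% had every MIA library below every control, 49.2% in either direction.

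**Figure D1:**
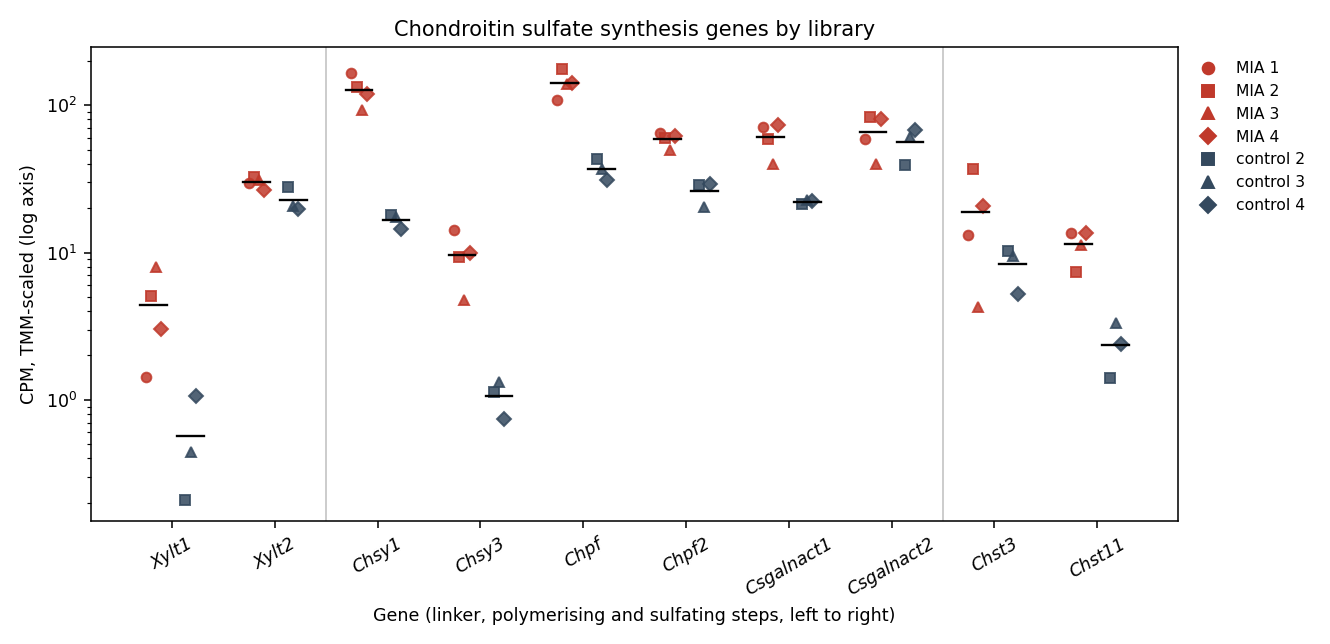
CPM of each of the 10 genes on a log axis, 1 point per library (MIA red, control dark, symbol by rat number) with the group mean as a bar; grey lines part the linker, polymerising and sulfating steps. Chsy1 and Chsy3 show the widest clear gap between the groups, while the points of Xylt2, Csgalnact2 and Chst3 overlap.

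**Figure D2:**
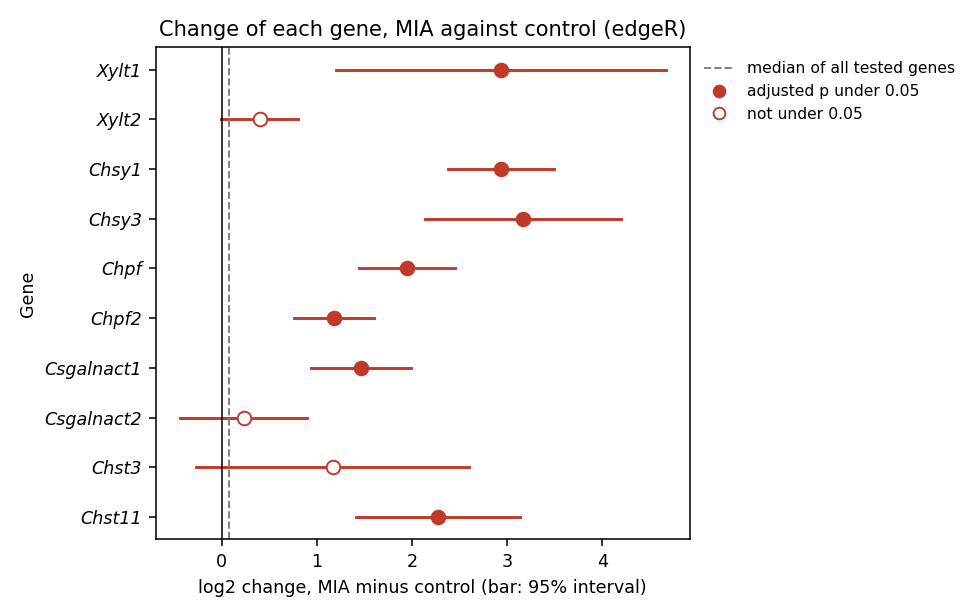
Log2 change of each gene, MIA minus control, with its 95% interval; filled points had an adjusted p under 0.05, and the dashed line is the median of all tested genes at 0.07. The 7 filled points lie between 1.18 and 3.16.

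Of the linker-starting enzymes, Xylt1 rose and Xylt2 did not pass. Both transfer the first xylose to the core protein. Xylt1 (ENSRNOG00000056658) had 1.44, 5.04, 8.02 and 3.01 CPM in MIA 1 to 4, against 0.210, 0.440 and 1.06 CPM in control 2 to 4. The groups did not overlap, but MIA 1 was near control 4, and the controls held only 3, 5 and 13 counts. It was 7.64-fold higher (log2 change 2.93 ± 0.76, adjusted p = 0.0162, edgeR). This call was not firm. Its adjusted p was 0.0536 without control 2, 0.0669 without control 3, 0.0511 with limma-voom and 0.0624 when the muscle level entered as a covariate. Xylt2 (ENSRNOG00000003728) had 29.5, 32.6, 31.3 and 26.8 CPM in MIA 1 to 4, against 28.0, 20.6 and 19.7 CPM in control 2 to 4. Control 2 alone reached into the MIA range. The change was 0.40 ± 0.18 (adjusted p = 0.102, edgeR; 95% interval −0.0048 to 0.80). It passed without control 2 (0.57, adjusted p = 0.0416) and with library totals in place of TMM (0.83, adjusted p = 0.0132), a scaling that moved the median of all genes by 0.44.

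The chondroitin synthases, which join the alternating sugars into the chain, had the largest rises together with Xylt1. Chsy1 (ENSRNOG00000012698) had 166, 132, 92.6 and 119 CPM in MIA 1 to 4, against 18.0, 17.5 and 14.3 CPM in control 2 to 4. The lowest MIA library, MIA 3, was still far above every control. The gene was 7.66-fold higher (2.94 ± 0.24, adjusted p = 0.000675, edgeR), and 0.206% of tested genes had a smaller p. Chsy3 (ENSRNOG00000050152), its close relative, had 14.1, 9.38, 4.77 and 9.92 CPM in MIA 1 to 4, against 1.12, 1.32 and 0.737 CPM in control 2 to 4. MIA 1 was again highest and MIA 3 lowest. It was 8.96-fold higher (3.16 ± 0.45, adjusted p = 0.00188, edgeR). MIA 1 also had the highest share of the 6-gene proliferation list, 0.0272% against 0.00848% to 0.0119% in the other MIA libraries and 0.000197% to 0.000499% in control libraries. All 6 of its genes were called higher. MIA 3, lowest of the MIA libraries for both synthases, was second highest of them for this list, at 0.0119%. MIA 1 was also highest of the MIA libraries, by a small margin over MIA 2, for the fibroblast list (7.79% against 7.78%) and a list of blood genes (2.51% against 2.30%). For mitochondrially encoded genes MIA 1 had 11.8%, with the other MIA libraries at 7.36% to 8.14%. The part of any of these lists in these values was not tested.

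Both polymerizing factors rose. These are synthase-like proteins that work in complex with the synthases. Chpf (ENSRNOG00000020038) had 109, 176, 139 and 142 CPM in MIA 1 to 4, against 42.9, 36.6 and 30.9 CPM in control 2 to 4. MIA 2 was highest and MIA 1 lowest, the reverse of Chsy1 for MIA 1. It was 3.85-fold higher (1.94 ± 0.22, adjusted p = 0.00108, edgeR). Chpf2 (ENSRNOG00000010466) had 64.7, 59.9, 49.8 and 61.9 CPM in MIA 1 to 4, against 28.8, 20.4 and 29.2 CPM in control 2 to 4. The MIA libraries lay close together and above all controls. It was 2.26-fold higher (1.18 ± 0.18, adjusted p = 0.00251, edgeR). In the RefSeq annotation of GRCr8, Chpf overlaps Obsl1 and Chpf2 overlaps Smarcd3, both of which are in the deposited table, and no source used here gives the strand setting of the counting, so reads of each such pair could not be told apart.

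Of the enzymes that commit the linker to chondroitin, Csgalnact1 rose and Csgalnact2 did not pass. Csgalnact1 (ENSRNOG00000013024) had 71.5, 58.9, 39.6 and 73.9 CPM in MIA 1 to 4, against 21.2, 22.6 and 22.5 CPM in control 2 to 4. The controls were nearly equal and all MIA libraries were above them. It was 2.76-fold higher (1.46 ± 0.23, adjusted p = 0.00263, edgeR). Csgalnact2 (ENSRNOG00000014713) had 59.3, 82.7, 40.1 and 80.3 CPM in MIA 1 to 4, against 39.3, 61.0 and 67.6 CPM in control 2 to 4. The groups overlapped over most of their range. The change was 0.23 ± 0.29 (adjusted p = 0.554, edgeR), with a 95% interval of −0.44 to 0.90, and it turned to −0.15 with the muscle covariate.

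Of the sulfating enzymes, Chst11 rose and Chst3 did not pass. Chst11 places sulfate at position 4 of N-acetylgalactosamine and Chst3 at position 6. Chst11 (ENSRNOG00000008885) had 13.5, 7.40, 11.3 and 13.6 CPM in MIA 1 to 4, against 1.40, 3.35 and 2.37 CPM in control 2 to 4. MIA 2 was lowest of the MIA libraries and still above all controls. It was 4.84-fold higher (2.27 ± 0.37, adjusted p = 0.00303, edgeR). Chst3 (ENSRNOG00000000572) had 13.1, 36.7, 4.28 and 20.8 CPM in MIA 1 to 4, against 10.3, 9.42 and 5.24 CPM in control 2 to 4. The other MIA libraries were above all controls, and MIA 3 was below all of them. The change was 1.17 ± 0.63 (adjusted p = 0.167, edgeR; 95% interval −0.27 to 2.60). Without MIA 3 it was 1.47 ± 0.41 and passed (adjusted p = 0.0267), and with the muscle covariate it was −0.23 (adjusted p = 0.83). The cartilage list took 0.150%, 0.424%, 0.0310% and 0.214% of the counts in MIA 1 to 4, the same order of libraries as Chst3. Comp, its most counted gene in each MIA library, had this order, as had Hapln1 and Col11a2. Every other gene of the list but Matn1 had MIA 1 above MIA 4. Among them were Col2a1, at 122, 924, 2.22 and 15.1 CPM in MIA 1 to 4, and Acan, at 342, 455, 64.2 and 319 CPM. The synovial lining list, at 0.1545%, 0.743%, 0.149% and 0.334%, had the order of Chst3 too, as had Csgalnact2. The part of either list in the Chst3 values was not tested.

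Scaling moved these calls. Between 6 and 8 of the 10 genes were called higher, and 0 lower, under 18 alternatives of scaling, test, filter, covariate or left-out library that did not scale on fibroblast genes. With the muscle level as a covariate 6 were called higher, the 7 without Xylt1, and 0 lower, against 11.4% and 9.34% of all tested genes. The muscle level did not overlap between the groups, so that fit cannot tell muscle content and group apart. The fibroblast list, whose share was 4.51% to 7.79% in MIA and 0.326% to 0.654% in control libraries, holds collagen genes and had 9 of 10 members higher. Set relative to that whole list, which moved the median of all genes by −2.40, none of the 10 was called higher and 5 were called lower, against 1.22% and 85.2% of all tested genes, while Chsy1 was at 0.50 ± 0.23 (adjusted p = 0.0602) and Chsy3 at 0.71 ± 0.44 (adjusted p = 0.145). A further scaling used 5 genes of that list, Pdgfra, Pdgfrb, Dcn, Fbln2 and Dpt, a choice made after the data were seen. They had the smallest log2 changes of the list, 0.16 (Dcn) to 1.23 (Dpt). Its other genes rose by 3.04 (Col1a2) to 4.69 (Lum). This choice lets more genes stay higher than the whole list does. Relative to these 5 genes the median of all genes moved by −0.91. Then 4 of the 10 were called higher and 0 lower by edgeR, against 5.98% and 47.6% of all tested genes: Chsy1 (2.01 ± 0.24, adjusted p = 0.000874), Chsy3 (2.22 ± 0.44, adjusted p = 0.00331), Chpf (1.05 ± 0.25, adjusted p = 0.00737) and Chst11 (1.33 ± 0.48, adjusted p = 0.0419).

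Within a library, levels of different genes can be set side by side as FPKM, which divides by gene length. In MIA synovium Chpf led with 55.5 ± 11.5 FPKM (SD, n = 4), followed by Chsy1 with 38.2 ± 6.88 FPKM, and the ranges of these neighbours overlapped. Next came Csgalnact1 (21.2 ± 4.91 FPKM), Csgalnact2 (20.4 ± 6.03 FPKM) and Chpf2 (16.1 ± 1.10 FPKM), which overlapped with each other but not with Chsy1. Xylt2 followed at 10.2 ± 1.08 FPKM, apart from its neighbours on both sides. Chst11 (5.91 ± 1.51 FPKM), Chsy3 (4.02 ± 1.42 FPKM), Chst3 (3.77 ± 2.74 FPKM) and Xylt1 (2.06 ± 1.43 FPKM) were lowest and overlapped in turn. In control synovium Csgalnact2 led with 12.8 ± 2.71 FPKM (SD, n = 3), overlapping with Chpf at 10.7 ± 2.42 FPKM. Chsy1, second in MIA, was the sixth of the 10 in controls at 3.73 ± 0.639 FPKM, overlapping with Chpf2 at 5.29 ± 1.15 FPKM and above Chst3 at 1.27 ± 0.468 FPKM.

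The share of each gene in the summed FPKM of the 10 does not depend on library scaling, whereas the sum itself rests on library totals. The summed FPKM of the 10 genes was 167.9, 195.3, 156.7 and 189.5 in MIA 1 to 4, against 49.6, 45.7 and 44.4 in control 2 to 4. Chsy1 made up 27.9%, 19.95%, 19.3% and 19.4% of that sum in MIA 1 to 4, against 8.70%, 8.34% and 6.87% in control 2 to 4. Csgalnact2 made up 8.63% to 13.6% in MIA and 19.6% to 33.5% in control libraries, and Xylt2 4.90% to 7.29% and 10.6% to 15.1%. Chsy3 made up 1.40% to 3.35% in MIA and 0.499% to 0.888% in control libraries. For these 4 genes the groups did not overlap, with Chsy1 and Chsy3 higher and Csgalnact2 and Xylt2 lower in MIA. By step, linker-starting enzymes held 5.64% to 9.82% in MIA and 11.3% to 15.3% in control libraries. Polymerising enzymes held 85.6% to 88.8% and 80.2% to 85.01%, and sulfating enzymes 4.61% to 6.07% and 3.63% to 5.74%, which overlapped. No test was run on these shares.

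**Figure D3:**
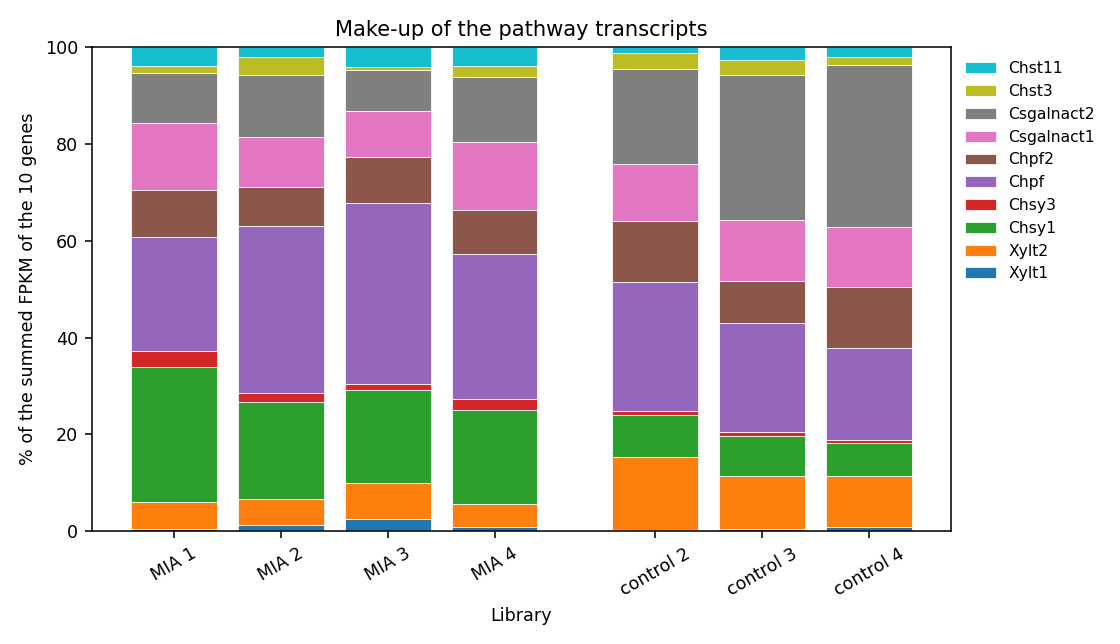
Stacked bars of the share (%) of each gene in the summed FPKM of the 10 genes, 1 bar per library, MIA libraries left of control libraries. The Chsy1 segment is 19.3% or more in each MIA library and 8.70% or less in each control; the Csgalnact2 segment is 8.63% to 13.6% in MIA libraries and 19.6% to 33.5% in controls.

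Related enzymes were also compared as a ratio within each library, which library scaling cannot move. The 5 pairs were compared by an exact two-sided permutation test over the 35 assignments of the libraries, where the smallest possible p is 0.0286. The Csgalnact1 to Csgalnact2 ratio was higher in MIA: per length it was 0.795 to 1.35 in MIA and 0.372 to 0.604 in control libraries. On the log2 scale of counts it averaged −0.09 ± 0.31 in MIA (SD, n = 4) and −1.30 ± 0.37 in control libraries (SD, n = 3), a difference of 1.21 ± 0.26 (SE). All 4 MIA libraries were above all 3 controls, with an exact permutation p = 0.0286, the smallest possible, and 0.143 after adjustment over the 5 pairs, which does not pass.

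The other pairs had larger p-values. The Xylt1 to Xylt2 ratio differed by 2.44 ± 0.92 (exact permutation p = 0.0857, adjusted 0.143) and the Chpf to Chpf2 ratio by 0.75 ± 0.29 (exact permutation p = 0.0857, adjusted 0.143), both higher in MIA, with 1 MIA library within the control range in each case. The Chst11 to Chst3 ratio spread widely in MIA, with log2 values of 0.05, −2.30, 1.40 and −0.62 in MIA 1 to 4, against −2.85, −1.48 and −1.13 in control 2 to 4. MIA 2 lay within the control range and the other MIA libraries above it. The difference was 1.45 ± 0.93 (exact permutation p = 0.229, adjusted 0.286). For Chsy1 to Chsy3 the difference was −0.15 ± 0.22 (exact permutation p = 0.514, adjusted 0.514), and the FPKM ratio was 8.33 to 13.7 in MIA and 9.39 to 13.8 in control libraries, ranges that overlapped.

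**Figure D4:**
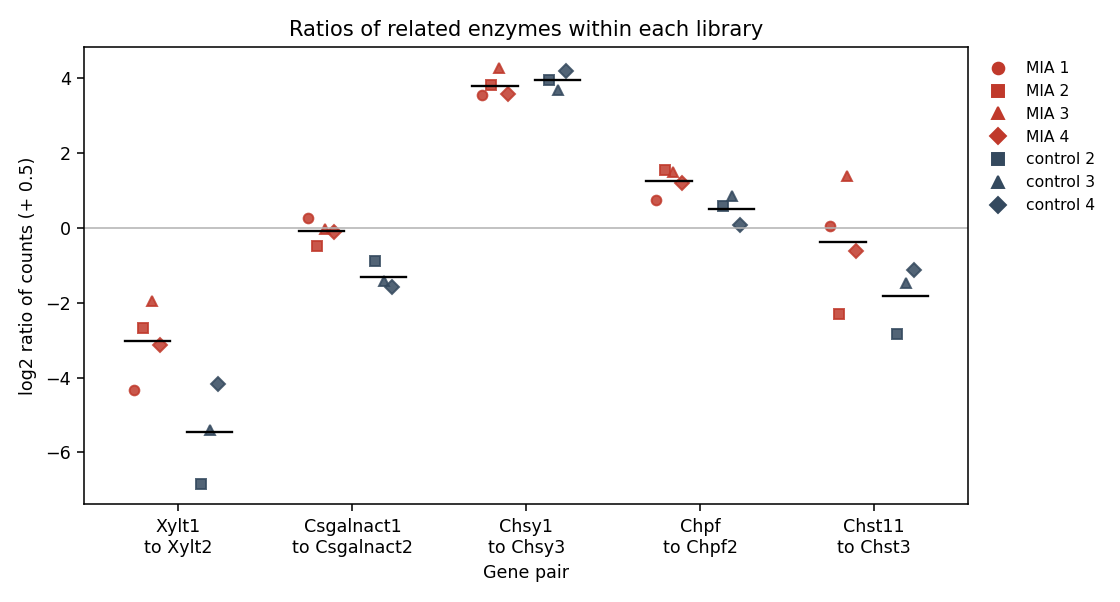
Log2 ratio of the counts (+ 0.5) of 5 pairs of related enzymes, 1 point per library (MIA red, control dark) with the group mean as a bar. The Csgalnact1 to Csgalnact2 points of MIA lie between −0.49 and 0.27, above the control points, which lie between −1.58 and −0.89.

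Other genes of the pathway were read from the same fit. Of the 3 genes with the smallest p in each list, only Acan and Vcan stayed above 0 relative to the whole fibroblast list, where Bgn was at −0.0072. Of 5 tested genes that finish the shared linker, 2 rose and none fell, against 21.3% and 19.6% of all tested genes, with a median change of 0.40. B3galt6, which adds a galactose of the linker, averaged 7.40 ± 1.46 CPM in MIA (SD, n = 4) and 3.53 ± 0.106 CPM in control (SD, n = 3), a log2 change of 1.07 ± 0.26 (adjusted p = 0.0139, edgeR). Pxylp1, the phosphatase that removes a phosphate from the linker xylose, rose by 1.50 ± 0.42 (adjusted p = 0.0216, edgeR), with 63.2 CPM in MIA 4 and 18.8 to 30.4 CPM in the other MIA libraries, against 11.1 to 12.6 CPM in controls. Neither call was firm: without 1 control or with the muscle covariate the adjusted p reached 0.0829 for B3galt6 and 0.0926 for Pxylp1. Without any one of the 3 controls that of Pxylp1 lay between 0.0700 and 0.0720, and that of B3galt6 was 0.0579 without control 3 and 0.0563 without control 4. The galactosyltransferase gene B4galt7 was at 0.33 ± 0.19 (adjusted p = 0.200, edgeR).

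Genes that turn chondroitin into dermatan sulfate were among those that rose. Of 7 tested genes for other sulfation and epimerisation, 4 rose and none fell, against 21.3% and 19.6% of all tested genes, with a median change of 1.16; Chst13 did not pass the filter on low counts. Dse, an epimerase that converts glucuronic to iduronic acid, averaged 102 ± 12.7 CPM in MIA (SD, n = 4) and 29.2 ± 5.52 CPM in control (SD, n = 3), a log2 change of 1.80 ± 0.19 (adjusted p = 0.00095, edgeR). Its relative Dsel was at 1.81 ± 0.25 (adjusted p = 0.00167, edgeR), and Chst14, which sulfates dermatan, at 1.36 ± 0.24 (adjusted p = 0.00374, edgeR). The member that also rose was Chst15, named after its value was seen (1.11 ± 0.34, adjusted p = 0.0304, edgeR). Relative to the 5 fibroblast genes, Dse was at 0.90 (adjusted p = 0.00499), Dsel at 0.91 (adjusted p = 0.0423) and Chst14 at 0.48 (adjusted p = 0.156).

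Of 12 tested genes for the supply of activated sugars and sulfate, from 13 listed, 6 rose and 1 fell, against 21.3% and 19.6% of all tested genes, with a median change of 0.81. Bpnt2, with 2 to 4 counts in MIA and 2 to 9 in control libraries, did not pass the filter. Papss1, which makes the sulfate donor PAPS, averaged 45.8 ± 8.34 CPM in MIA (SD, n = 4) and 21.1 ± 4.68 CPM in control (SD, n = 3), a log2 change of 1.12 ± 0.22 (adjusted p = 0.00532, edgeR). With the muscle covariate it was 0.91 and did not pass (adjusted p = 0.0632). Slc35b2, the Golgi carrier of PAPS, rose by 1.11 ± 0.19 (adjusted p = 0.00352, edgeR). Ugp2, which makes UDP-glucose for these sugars and for glycogen, fell by 1.52 on the log2 scale (SE 0.28, adjusted p = 0.0042, edgeR), with 150.9 ± 38.2 CPM in MIA (SD, n = 4) and 434 ± 103 CPM in control (SD, n = 3). This fall ran beside a muscle list share of 0.0391% to 4.37% in MIA and 11.7% to 13.7% in control libraries. With the muscle level as a covariate the change was −1.86 ± 0.37 (adjusted p = 0.0168, edgeR). That level, a mean log2 CPM, was 3.88 to 10.5 in MIA, lowest in MIA 2, and 12.3 to 12.6 in control libraries. The groups did not overlap in it, so this fit cannot tell muscle content and group apart.

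The heparan sulfate branch, which uses the same linker, was read beside it. Of 10 tested, 4 rose and none fell, against 21.3% and 19.6% of all tested genes, with a median change of 0.88. Ext1, a heparan sulfate polymerase, averaged 80.3 ± 11.8 CPM in MIA (SD, n = 4) and 29.5 ± 3.08 CPM in control (SD, n = 3), a log2 change of 1.44 ± 0.18 (adjusted p = 0.0013, edgeR). Extl2, a glycosyltransferase acting on the linker, was at 1.09 ± 0.26 (adjusted p = 0.0119, edgeR) and the sulfotransferase gene Hs2st1 at 0.90 ± 0.24 (adjusted p = 0.0183, edgeR). The adjusted p was 0.0563 for Extl2 without control 4, and for Hs2st1 0.0821 without control 3 and 0.0711 without control 4. The fourth was Ext2, named after its value was seen (0.86 ± 0.25, adjusted p = 0.0249, edgeR). No test set this list against the chondroitin genes.

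Of 8 lysosomal genes for the breakdown of chondroitin sulfate or dermatan sulfate, 2 rose and none fell, with a median change of 0.52. That share of rises was near the 21.3% of all tested genes, of which 19.6% fell. Arsb, the sulfatase for position 4, averaged 80.7 ± 14.7 CPM in MIA (SD, n = 4) and 35.3 ± 3.04 CPM in control (SD, n = 3), a log2 change of 1.19 ± 0.19 (adjusted p = 0.00256, edgeR). The glucuronidase gene Gusb was at 1.77 ± 0.37 (adjusted p = 0.00729, edgeR) and 0.93 with the muscle covariate (adjusted p = 0.0738). Hexa, a hexosaminidase subunit, was at 0.59 ± 0.23 and did not pass (adjusted p = 0.0664, edgeR), although every MIA library was above every control.

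Of 8 tested core proteins that carry such chains, from 11 listed, 3 rose and none fell, against 21.3% and 19.6% of all tested genes, with a median change of 0.60. Acan, the core of aggrecan, had 342, 455, 64.2 and 319 CPM in MIA 1 to 4, against 0.491, 2.55 and 1.06 CPM in control 2 to 4, and MIA 3 was lowest for it as for Chsy1, Chsy3, Chpf2, Csgalnact1, Csgalnact2 and Chst3. Its log2 change was 7.77 ± 0.92 (adjusted p = 0.0012, edgeR). Vcan, the core of versican, had 836, 375, 608 and 720 CPM in MIA 1 to 4, against 91.6, 65.3 and 46.5 CPM in control 2 to 4, and was at 3.23 ± 0.39 (adjusted p = 0.00127, edgeR). Bgn, the small proteoglycan biglycan, was at 2.45 ± 0.50 (adjusted p = 0.00659, edgeR).

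**Figure D5:**
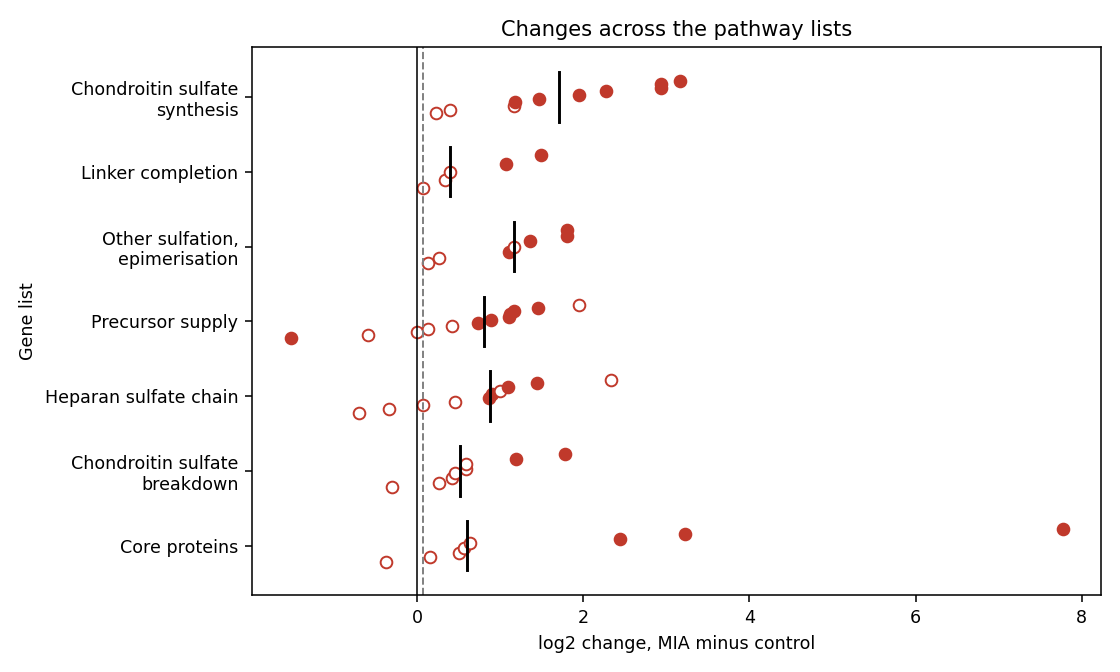
Log2 change, MIA minus control, of every tested gene in the 10-gene chondroitin sulfate synthesis set and 6 related lists; filled points had an adjusted p under 0.05, black bars are list medians and the dashed line is the median of all tested genes. The synthesis genes all lie right of 0 with a median of 1.70, and the medians of the other lists run from 0.40 to 1.16.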

How the data were processed

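RNA-seq of synovium from 4 MIA and 3 control rats was used. Per the file headers, the deposited table gives a count and an FPKM value for each gene and library; counts were whole numbers. Build Rnor_6.0 and the tools HISAT2, HTSeq (0.11.2) and DESeq2 (1.26.0) are listed, without their roles, per the submitters' processing notes. Computed back, the deposited FPKM are counts per gene length and library total, with 1 length per gene in 18593 of 18593 genes with counts in 2 or more libraries (relative tolerance 1e-06). FPKM were used for levels between genes and for alternatives.

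Counts were fitted in R 4.3.3 with edgeR 4.0.16 (filterByExpr, 14054 genes kept; TMM; glmQLFTest; adjusted p under 0.05). The SE is the absolute log2 change over the square root of F. The fit was tested on simulated data, where 1% of 2-fold and 55% of 4-fold changes were called. Of the calls there, 8.20% were false. In the simulation 100 genes were changed at each fold among 14054, unlike the data, where 40.9% of genes were called. A gene that did not pass is therefore not shown to be unchanged. Intervals are 95% and come from that SE. Alternatives used DESeq2 1.42.0, limma 3.58.1, other scalings, filters, a replicate block, a muscle covariate and left-out libraries. With 4 and 3 libraries, precision is limited by the number of rats: the common biological coefficient of variation was 36.7%. Depth ran from 13870822 to 16261089 counts.

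The 10 genes and all lists were chosen with earlier results of these data known. Pathway genes named are the 3 with the smallest p of each list; others are said to be named after their values were seen. One gene of the sugar and sulfate supply list is not reported here and was left out of that list's counts. Bpnt2 was matched by its synonym Impad1, and Cd79a of the lymphocyte list by Cd79al. No source used here gives the annotation release. Figures were drawn with matplotlib 3.10.9.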

Additional observations from a re-analysis of the deposited data

Results flagged for a closer look

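In the 4 MIA libraries a value was singled out by its gap to the nearest other library. The gap had to exceed the share of the group's range set by Dixon's 95% critical value. Chance does so in about 1 group in 20. More groups of values were screened than are given here, since only the flagged ones are listed. Some or all of these flags may therefore be due to chance. For the Chsy1 share of the summed FPKM the gap was 0.921 of the range, with MIA 1 at 27.9% and the others at 19.3% to 19.95%. For the Chst11 share it was 0.888, with MIA 2 at 1.90% and the others at 3.78% to 4.01%. For the fibroblast list share of counts it was 0.955, with MIA 3 at 4.51% and the others at 7.65% to 7.79%. For the neutrophil list share it was 0.956, with MIA 3 at 0.0729% and the others at 0.00260% to 0.00566%. MIA 3 was also the lowest MIA library for Chsy1, Chsy3 and Chst3 and the highest for Xylt1.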

How the results depend on the processing

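The number of the 10 genes called higher was 7, and 6 to 8 under the alternatives other than scaling on fibroblast genes, with 0 called lower. Leaving out 1 library gave 6 to 8. Scaling on the fibroblast list, which itself rose, gave 0 called higher and 5 lower, and turned these log2 changes: Xylt2 −1.97, Chpf −0.43, Chpf2 −1.27, Csgalnact1 −1.004, Csgalnact2 −2.28, Chst3 −1.32, Chst11 −0.13, B3galt6 −1.37, Pxylp1 −0.97, B4galt7 −2.09, Dse −0.60, Dsel −0.58, Chst14 −1.03, Slc35b2 −1.29, Papss1 −1.31, Ext1 −0.99, Extl2 −1.27, Hs2st1 −1.53, Arsb −1.18, Gusb −0.64, Hexa −1.84, Bgn −0.0072. Over all genes it gave 172 higher and 11976 lower. Scaling on the 5 genes of that list with the smallest changes, chosen after seeing the data, gave 4 of the 10 higher and 841 and 6686 genes in all. It turned Xylt2 −0.47, Csgalnact2 −0.78, B4galt7 −0.57, Hs2st1 −0.0068, Hexa −0.32. The muscle covariate gave 1606 and 1313 genes in all and turned Csgalnact2 −0.15, Chst3 −0.23; the cause was not tested. Over all genes 2998 were higher and 2753 lower; library totals gave 5259 and 1477, limma on log2(FPKM + 1) 4959 and 1608, and limma on log2(FPKM + 0.1) 5140 and 1558, scalings that raised the median of all genes by 0.44, 0.29 and 0.40 in that order. Leaving out 1 library gave 1642 to 2937 higher and 1757 to 2787 lower, with 1761 higher without control 3, and 1642 higher and 1757 lower without control 4. The Chsy1 to Chsy3 ratio was 0.13 with FPKM + 0.1 in place of −0.15, where 0.1 was added to Chsy3 values of 0.222 to 0.406 FPKM in controls. The replicate block gave 7 of the 10 genes higher and 0 lower. Same-numbered rats had deviations correlated at 0.245, 0.0967 and 0.0425 for numbers 2, 3 and 4. Pairs of unlike number ran from -0.237 (MIA 3 with control 2) to 0.186 (MIA 3 with control 4). Whether rats of the same number were linked was not tested. Over all genes the block gave 2301 and 2254, and B3galt6 had an adjusted p of 0.0513. Without 1 library the ratio differences ran from 1.07 to 1.42 for Csgalnact1 to Csgalnact2, 1.76 to 3.09 for Xylt1 to Xylt2, 0.54 to 0.92 for Chpf to Chpf2, 0.86 to 2.09 for Chst11 to Chst3 and −0.30 to −0.02 for Chsy1 to Chsy3. The thinnest counts were those of Xylt1 in controls, 3 to 13.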
